A study of Mus musculus with 12 samples.

Results

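The 9 genes described here, S1pr1, Klf2, Lef1, Tcf7, Il7r, Foxo1, Satb1, Actn1 and Bach2, are a named list of genes that naive or resting T cells express, out of 23337 gene symbols counted in each library and 12038 that were abundant enough to be tested. The list was chosen with earlier results of these data known. All 9 were found by symbol, and all 9 were tested. In induced regulatory T cells, 8 of the 9 were lower than in natural regulatory T cells and Bach2 was higher, under both genotype labels. Calls were common in that comparison: 65.2% of all tested genes were called under the WT label and 61.9% under the KO label. Between the genotype labels of Hrd1, none of the 9 was called in either kind of cell by the main edgeR fit of the 4 groups. In natural cells, other fits called some of them lower. With libraries of the same replicate number compared with each other, edgeR called Foxo1 and Actn1, where 3.64% of all tested genes were called lower. DESeq2 called Foxo1, against 1.18%, and edgeR on the 6 libraries of natural cells alone called Tcf7, Foxo1 and Actn1, against 4.65%.

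The libraries came from C57BL/6 mice aged 8 weeks. Natural regulatory T cells (nTreg) were CD4-positive, GFP-positive cells sorted from spleen and lymph nodes, and induced regulatory T cells (iTreg) were CD4 T cells held for 5 days with IL-2 and TGF-beta, from which GFP-positive cells were taken. Each kind had 3 libraries labelled WT (genotype Hrd1 +/flox, FoxP3-cre+-GFP) and 3 labelled KO (genotype Hrd1 flox/flox, FoxP3-cre+-GFP). Every group thus carries the Cre driver, which is active in cells that express Foxp3, and at least 1 floxed allele of Hrd1. No group analysed here lacks the floxed allele or Cre. In cells that turn on Foxp3 during culture, the driver can act only from that time. Whether replicates are separate mice is not in the labels, and p-values cover the spread among the libraries alone.

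A resting T cell keeps a gene programme that holds it in circulation and out of the cell cycle. FOXO1, a transcription factor that AKT phosphorylates and drives out of the nucleus after antigen or cytokine signals, activates Klf2, Ccr7 and Il7r. KLF2 in turn activates S1pr1, the receptor for sphingosine-1-phosphate by which lymphocytes leave lymphoid organs. TCF-1 (the product of Tcf7) and LEF-1 are HMG-box factors that bind beta-catenin, SATB1 is a chromatin organiser that is repressed by FOXP3 in regulatory T cells, BACH2 is a repressor that competes with AP-1 factors, and ACTN1 is an alpha-actinin that crosslinks actin filaments. The IL-7 receptor alpha chain, encoded by Il7r, takes up survival signals and is kept low on most regulatory T cells.

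Library totals ranged from 6763458 to 15462894 counts. Defining markers of regulatory and CD4 T cells were present in all 12 libraries, at a summed 4032 to 5362 counts scaled to a common library size (CPM) over 7 markers. The targeted gene Hrd1, listed as Syvn1, was at 73.7 to 87.2 CPM in WT-labelled nTreg and at 129.7 to 145.5 in KO-labelled nTreg, which goes against the label. In iTreg it was at 61.6 to 101 CPM under the WT label and 54.6 to 73.1 under the KO label, with overlap. These are counts over the whole gene, which do not separate the floxed exons from the rest, and libraries are therefore named by their label below. Reads of Xist were found in nTreg WT replicate 3, nTreg KO replicate 3 and iTreg WT replicate 2 (483 to 2027 CPM, against at most 0.232 elsewhere). The Y-linked gene Ddx3y was at 0 CPM in iTreg WT replicate 2 and at 79.0 to 262 in all other libraries, with 103 and 141 in nTreg WT replicate 3 and nTreg KO replicate 3. The iTreg libraries numbered 2, which a replicate block pairs, are therefore unlike each other in Xist and in Ddx3y, which KO replicate 2 holds at 79.0 CPM. iTreg KO replicate 2 stood apart from its group for several of the 9 genes, as given with each result.

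All 9 are protein-coding genes in GENCODE M21 (GRCm38, the mm10 build). S1pr1 (ENSMUSG00000045092.8) is at chr3:115710433-115715072 on the minus strand. Klf2 (ENSMUSG00000055148.7) is at chr8:72319033-72321656 on the plus strand. Il7r (ENSMUSG00000003882.5) is at chr15:9505788-9530176 on the minus strand, and Foxo1 (ENSMUSG00000044167.6) at chr3:52268336-52353221 on the plus strand. Tcf7 (ENSMUSG00000000782.15) is at chr11:52252371-52283014 on the minus strand, and Lef1 (ENSMUSG00000027985.14) at chr3:131110471-131224356 on the plus strand. Satb1 (ENSMUSG00000023927.15) is at chr17:51736187-51833290 on the minus strand, Bach2 (ENSMUSG00000040270.16) at chr4:32238804-32586108 on the plus strand, and Actn1 (ENSMUSG00000015143.15) at chr12:80167547-80260371 on the minus strand. Lef1, Foxo1, Actn1 and Bach2 share 88 to 1208 exonic bases with annotated antisense genes, and Satb1 shares 156 and 128 with unconfirmed gene models. Whether reads were counted by strand is not given in the sources used here, so reads from those stretches could belong to either gene.

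The upstream sequences of 3 transcriptional regulators are shown because they moved in opposite directions between the kinds: Klf2 and Foxo1, which were lower in iTreg, and Bach2, which was higher. They are the 250 bases before the RefSeq start (GRCm38.p6), all on the plus strand, at chr8:72318812-72319061 for Klf2, chr3:52268087-52268336 for Foxo1 and chr4:32417185-32417434 for Bach2. The start listed for Bach2 lies inside the GENCODE gene, downstream of its first exon. The end of the Klf2 window overlaps the first exon annotated in GENCODE. Capitals mark the only motif match, GGGTGG in Klf2, which is CCACCC read on the other strand and begins 19 bases before the RefSeq start. That match lies in the overlap, inside the GENCODE gene and downstream of its start at 72319033.
Klf2: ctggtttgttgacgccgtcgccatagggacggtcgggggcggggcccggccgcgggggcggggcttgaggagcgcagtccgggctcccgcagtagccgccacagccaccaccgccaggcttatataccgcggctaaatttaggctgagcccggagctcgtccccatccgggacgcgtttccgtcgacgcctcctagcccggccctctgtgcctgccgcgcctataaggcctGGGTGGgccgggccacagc
Foxo1: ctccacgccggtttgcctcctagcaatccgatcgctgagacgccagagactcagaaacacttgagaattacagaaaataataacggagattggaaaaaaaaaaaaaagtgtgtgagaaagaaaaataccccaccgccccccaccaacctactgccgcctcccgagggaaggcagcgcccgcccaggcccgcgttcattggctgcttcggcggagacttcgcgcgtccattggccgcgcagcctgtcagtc
Bach2: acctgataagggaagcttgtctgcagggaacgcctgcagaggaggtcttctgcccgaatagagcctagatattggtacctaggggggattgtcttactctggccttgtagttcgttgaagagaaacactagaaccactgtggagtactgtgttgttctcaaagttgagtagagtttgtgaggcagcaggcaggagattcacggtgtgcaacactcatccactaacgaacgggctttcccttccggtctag
The motifs searched on both strands were GTAAACA (FOXO core), CTTTGAT or CTTTGAA (TCF and LEF core), TGAGTCA (AP-1 and BACH core) and CCACCC (the box that KLF factors bind). RefSeq starts were found for 8 of the 9 genes, 16 starts in all. Among them CCACCC was present at starts of Klf2, Lef1, Tcf7 and Satb1, and the other motifs were at none of the 16. Over 32851 windows of the same length, CCACCC was in 28.1%, CTTTGAT or CTTTGAA in 7.48%, TGAGTCA in 4.46% and GTAAACA in 3.17%. A match describes letters only, and its absence here says nothing of the factor.

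**Figure D1:**
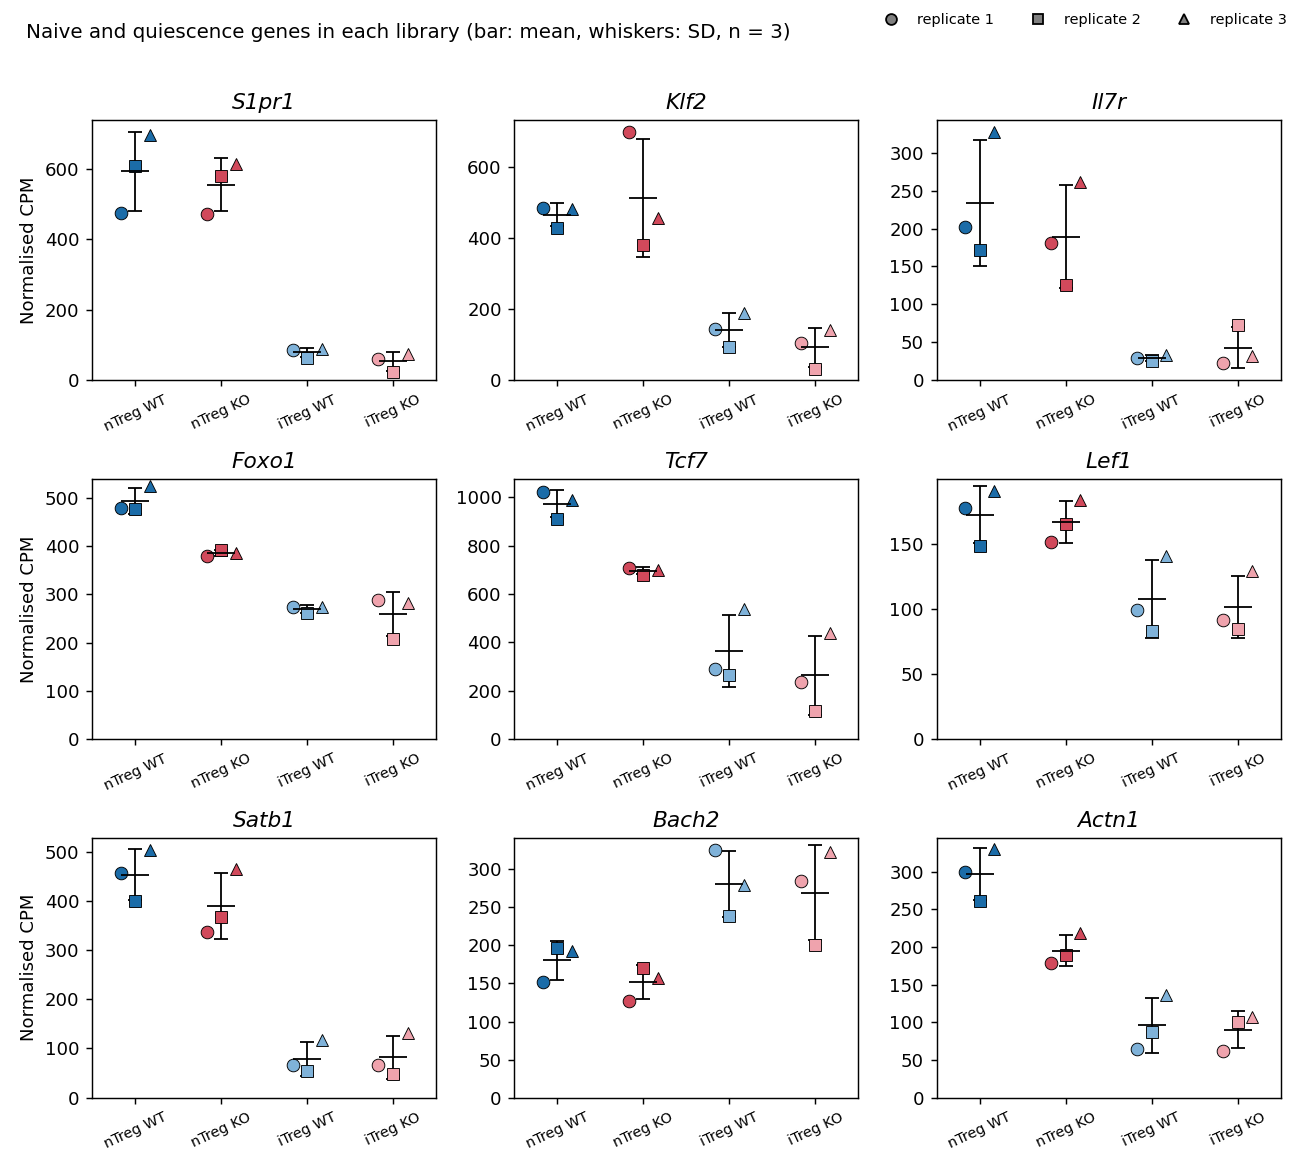
Level of each of the 9 genes in every library (points, CPM on a linear axis) by group (nTreg or iTreg, WT or KO label). Bars mark the mean of 3 libraries and whiskers the SD. For 8 genes the iTreg points lie below the nTreg points, and for Bach2 above them; iTreg KO replicate 2 is the lowest point of its group for S1pr1 (23.1 CPM), Klf2 (32.2) and Tcf7 (116).

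S1pr1, the egress receptor, was lower in iTreg under both labels. In WT-labelled nTreg its level was 475, 608 and 698 CPM in replicates 1 to 3, and in KO-labelled nTreg 471, 581 and 615 CPM. The iTreg levels were 85.7, 63.0 and 87.2 CPM under the WT label and 60.3, 23.1 and 75.1 CPM under the KO label. Every iTreg library was thus below every nTreg library, while WT and KO labels overlapped within each kind. Fitted against nTreg by edgeR's quasi-likelihood test, the fall in iTreg was 7.55-fold under the WT label (log2 -2.92, SE 0.34, adjusted p = 1.37e-05) and 10.5-fold under the KO label (log2 -3.39, SE 0.35, adjusted p = 6.25e-06). In these bulk libraries, here and for the genes below, fewer cells of a type and less RNA per cell cannot be told apart. S1pr1 did not pass between labels in nTreg (log2 -0.09, 95% interval -0.78 to 0.59) or in iTreg (log2 -0.57, interval -1.27 to 0.13).

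Klf2, the activator of S1pr1, was also lower in iTreg. Its level in nTreg was 485, 427 and 482 CPM under the WT label and 699, 381 and 457 CPM under the KO label, where replicate 1 stood above the other two. The iTreg libraries held 143, 92.8 and 188 CPM and 104, 32.2 and 140.5 CPM. No iTreg library reached the lowest nTreg library. Klf2 fell 3.29-fold in WT-labelled iTreg (log2 -1.72, SE 0.42, adjusted p = 0.00353) and 5.55-fold in KO-labelled iTreg (log2 -2.47, SE 0.44, adjusted p = 0.000405). Without the 3 libraries that hold Xist reads, the WT-label fall kept its direction and lost its call (log2 -1.46, adjusted p = 0.0617). Between labels the log2 difference of Klf2 was 0.14 in nTreg (interval -0.76 to 1.04) and -0.61 in iTreg (interval -1.52 to 0.29), and neither passed.

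Il7r fell about as far as S1pr1 under the WT label, the fitted values of the 2 genes differing by less than their SE. It was at 202, 172 and 328 CPM in WT-labelled nTreg and 181, 126 and 261 CPM in KO-labelled nTreg, with replicate 3 the highest under both labels. In iTreg it was at 29.5, 25.4 and 32.5 CPM under the WT label and 23.0, 73.2 and 32.3 CPM under the KO label. The value of KO replicate 2 was 2.65 times the mean of the other KO-labelled iTreg libraries, opposite to what the same library showed for S1pr1, Klf2 and Tcf7. Il7r fell 8.04-fold in WT-labelled iTreg (log2 -3.01, SE 0.41, adjusted p = 5.11e-05) and 4.42-fold in KO-labelled iTreg (log2 -2.15, SE 0.40, adjusted p = 0.000599).

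Foxo1, the factor upstream of Klf2 and Il7r, had the smallest SD relative to its mean in each of the 4 groups. Its level was 479.6, 476 and 524 CPM in WT-labelled nTreg and 379.9, 392 and 386 CPM in KO-labelled nTreg, so the labels did not overlap in nTreg. In iTreg it was 274, 261 and 274 CPM under the WT label and 289, 206 and 282 CPM under the KO label, which overlapped. Foxo1 fell 1.83-fold in WT-labelled iTreg (log2 -0.87, SE 0.12, adjusted p = 4.83e-05) and 1.49-fold in KO-labelled iTreg (log2 -0.58, SE 0.12, adjusted p = 0.00121). Klf2 and Il7r, which it is known to activate, had deeper fitted falls.

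Tcf7 and Lef1 encode related factors and differed in how far they moved. Tcf7 was at 1022, 912 and 988 CPM in WT-labelled nTreg and 709, 679.9 and 698 CPM in KO-labelled nTreg, without overlap. In iTreg it ran from 264 to 536 CPM under the WT label (289.9, 264 and 536) and from 116 to 436 under the KO label (235, 116 and 436), replicate 3 being the highest in both. Its fall in iTreg was 2.68-fold under the WT label (log2 -1.42, SE 0.38, adjusted p = 0.00558) and 2.65-fold under the KO label (log2 -1.40, SE 0.38, adjusted p = 0.00655). Lef1 was at 178, 148 and 191 CPM and 151, 165 and 184 CPM in nTreg under the WT and KO labels, and at 98.8, 83.2 and 141 CPM and 91.3, 84.4 and 129 CPM in iTreg. Its highest iTreg library (141 CPM) was close to its lowest nTreg library (148 CPM). Lef1 fell 1.60-fold under the WT label (log2 -0.68, SE 0.20, adjusted p = 0.01) and 1.64-fold under the KO label (log2 -0.71, SE 0.20, adjusted p = 0.00816). Without the 3 libraries with Xist reads the WT-label calls of both were lost, at log2 -1.23 (adjusted p = 0.0822) for Tcf7 and -0.45 (adjusted p = 0.149) for Lef1.

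Satb1 and Bach2, the chromatin organiser and the AP-1 competitor, went opposite ways. Satb1 was at 456, 400.1 and 504 CPM in nTreg labelled WT, at 336, 367 and 464 CPM in those labelled KO, and at 65.6, 53.4 and 117 CPM and 67.2, 47.2 and 131 CPM in iTreg. It fell 5.77-fold under the WT label (log2 -2.53, SE 0.36, adjusted p = 6.63e-05) and 4.75-fold under the KO label (log2 -2.25, SE 0.36, adjusted p = 0.000181). Bach2 was the single gene of the list that was higher in every iTreg library than in every nTreg library. It was at 151, 196 and 193 CPM and 127, 171 and 158 CPM in WT- and KO-labelled nTreg, and at 326, 239 and 279 CPM and 285, 201 and 322 CPM in iTreg. The rise was 1.56-fold under the WT label (log2 0.64, SE 0.19, adjusted p = 0.00902) and 1.77-fold under the KO label (log2 0.83, SE 0.19, adjusted p = 0.00213).

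Actn1, the cytoskeletal member, was at 299.8, 261 and 330.1 CPM in WT-labelled nTreg and 178, 189 and 218 CPM in KO-labelled nTreg, again without overlap between the labels. Its iTreg levels were 64.2, 87.5 and 136 CPM under the WT label and 61.9, 101 and 107 CPM under the KO label, where replicate 1 was the lowest in both. It fell 3.10-fold in WT-labelled iTreg (log2 -1.63, SE 0.26, adjusted p = 0.00015) and 2.16-fold in KO-labelled iTreg (log2 -1.11, SE 0.25, adjusted p = 0.00235).

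Counted together, 8 members were called lower and 1 higher in iTreg under the WT label, where 65.2% of all tested genes were called, 30.4% lower and 34.8% higher. Under the KO label the count was the same, against 61.9% of all genes (29.8% lower, 32.1% higher). All 9 had groups without overlap under both labels, as 71.3% of genes did under the WT label and 66.9% under the KO label. A call or a lack of overlap by itself is thus common in this comparison. The median log2 difference of the 9 was -1.63 under the WT label and -1.40 under the KO label, against 0.05 and 0.01 over all tested genes. Because the 9 were chosen with earlier results of these data known, their medians and shared direction describe the list and do not test it. The KO-label and WT-label comparisons use different libraries. Leaving out any 1 of the 12 libraries ended none of these 18 calls.

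**Figure D2:**
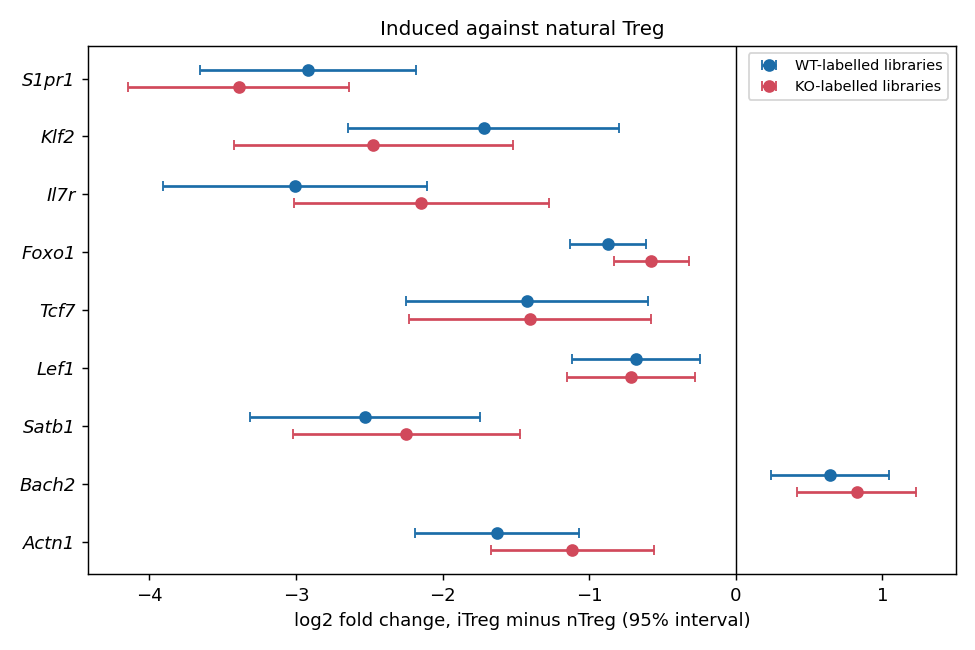
Log2 difference, iTreg minus nTreg, of each of the 9 genes under the WT label and under the KO label, with 95% intervals from edgeR's fit over 12 libraries. Bach2 lies right of 0 (0.64 and 0.83) and the other genes left of it, down to -3.01 for Il7r under the WT label and -3.39 for S1pr1 under the KO label.

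Culture and source differ between the kinds, so induction, 5 days of culture with IL-2 and TGF-beta, and origin cannot be told apart in these differences. Markers of other cells also differed: the summed macrophage and monocyte markers were at 47.6 to 638 CPM in nTreg and at most 4.05 in iTreg, with Lyz2, C1qa and C1qc at 0 in every iTreg library, and 9 B cell markers were at 13.1 to 20.6 CPM in nTreg and at most 3.09 in iTreg. The summed NK cell markers were at 21.7 to 34.6 CPM in nTreg and 63.1 to 137 in iTreg, mostly from Nkg7. Nkg7 alone was at 17.3 to 29.8 CPM in nTreg and 60.9 to 125 in iTreg. The other NK markers did not move together. Klrk1 was higher in iTreg and Gzma overlapped, while Klrb1c was lower (2.27 to 5.10 CPM in nTreg, at most 0.0904 in iTreg). Ncr1 was at 0 in iTreg. Ikzf2, which marks natural regulatory T cells, was at 796 to 1274 CPM in nTreg and 21.3 to 34.5 in iTreg. The part of these cells in the levels of the 9 genes was not tested.

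The counts of listed genes below are to be read against the shares of all tested genes that were called in this comparison, 30.4% lower and 34.8% higher under the WT label, and 29.8% and 32.1% under the KO label. Other genes known from naive and quiescent T cells mostly shared the direction. Of 30 such genes tested, 22 fell and 3 rose in iTreg under the WT label, and 21 fell and 4 rose under the KO label, with medians of -1.13 and -1.05 on the log2 scale. The antiproliferative gene Btg1 fell under the WT label (log2 -1.72, SE 0.15, adjusted p = 1.31e-06, edgeR), as did the ETS factor Elf4 (log2 -1.11, SE 0.11, adjusted p = 2.75e-06) and Id3, an inhibitor of E proteins (log2 -1.40, SE 0.17, adjusted p = 1.58e-05). Igfbp4 went the other way, with a rise (log2 1.88, SE 0.16, adjusted p = 1.15e-06). Ccr7, a FOXO1 target that guides cells into lymph nodes, is named here after its values were seen. It was at 238 to 304 CPM in nTreg and 357 to 523 in iTreg, a rise under the WT label (log2 0.70, SE 0.15, adjusted p = 0.00164).

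Of 22 genes that act on FOXO factors or with them, 9 fell and 4 rose under the WT label (median log2 -0.16, all tested genes 0.05), and 8 fell and 4 rose under the KO label. Phlpp1, a phosphatase that removes an activating phosphate from AKT, fell (log2 -2.16, SE 0.11, adjusted p = 3.55e-08) under the WT label. Skp2, a ubiquitin ligase subunit that targets FOXO1, rose (log2 2.04, SE 0.25, adjusted p = 2.24e-05). Of 14 tested FOXO and KLF2 targets 9 fell and 3 rose under the WT label (median -1.08; 8 and 3 under the KO label). Among them Itgb7, the gut-homing integrin chain, fell (log2 -1.82, SE 0.16, adjusted p = 1.19e-06), as did Cdkn1b, which encodes the cell cycle inhibitor p27 (log2 -0.98, SE 0.11, adjusted p = 9.6e-06), while Bnip3 rose (log2 5.46, SE 0.93, adjusted p = 0.000278). Bnip3 was at 2.48 to 3.54 CPM in nTreg and 21.5 to 223 in iTreg, lowest in replicate 3 under both labels.

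Around S1pr1, 11 of 19 tested genes of sphingosine-1-phosphate sensing and egress fell and 3 rose under each label (median log2 -0.79 under the WT label). Rac2, a GTPase of leukocyte migration, fell under the WT label (log2 -1.33, SE 0.12, adjusted p = 1.34e-06), as did its exchange factor Dock2 (log2 -1.29, SE 0.12, adjusted p = 2.22e-06) and the actin regulator Coro1a (log2 -1.01, SE 0.13, adjusted p = 2.65e-05). S1pr4, another receptor for the lipid, fell under the KO label (log2 -1.65, SE 0.24, adjusted p = 0.000103). Sphk1, which makes the lipid, had no reads in WT-labelled nTreg and 3.98 to 11.6 CPM in WT-labelled iTreg.

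Around Tcf7 and Lef1, 10 of 20 partners and WNT pathway genes fell and 6 rose under the WT label (median log2 -0.57; 11 and 6 under the KO label). Axin2, a target gene and inhibitor of the WNT pathway, fell (log2 -2.64, SE 0.32, adjusted p = 2.01e-05), as did the kinase Nlk (log2 -1.22, SE 0.13, adjusted p = 5.04e-06), whereas the corepressor Tle1 rose (log2 1.77, SE 0.20, adjusted p = 9.2e-06) and its relative Tle3 fell (log2 -0.86, SE 0.10, adjusted p = 1.86e-05). Around Il7r, 7 of 16 signalling genes fell and 3 rose (median log2 -0.30; 8 and 2 under the KO label): the kinase Jak1 fell (log2 -1.28, SE 0.10, adjusted p = 7.68e-07), as did the survival factor Mcl1 (log2 -1.18, SE 0.10, adjusted p = 1.23e-06) and the shared chain Il2rg (log2 -0.82, SE 0.10, adjusted p = 2.7e-05).

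Around Bach2 and Satb1, 7 of 13 genes fell and 4 rose under the WT label (median log2 -0.47; 5 and 4 under the KO label). Prdm1, which encodes BLIMP-1 and is known to be repressed by BACH2, was at 26.7 to 42.2 CPM in nTreg and 1.46 to 4.33 CPM in iTreg, a log2 difference of -3.89 under the WT label (SE 0.32, adjusted p = 7.46e-07) and -3.43 under the KO label (SE 0.31, adjusted p = 2.48e-06). Batf, an AP-1 factor, fell (log2 -1.76, SE 0.22, adjusted p = 2.74e-05), while the small MAF partners Mafg and Maff rose (log2 1.41, SE 0.19, adjusted p = 3.87e-05, and log2 3.16, SE 0.72, adjusted p = 0.00207). Of 17 actinin and adhesion genes 6 fell and 5 rose under the WT label (median log2 -0.07; 5 and 7 under the KO label). Actn4, the close relative of Actn1, rose (log2 0.81, SE 0.10, adjusted p = 1.86e-05) and so did Vcl, its vinculin partner (log2 3.19, SE 0.25, adjusted p = 5.19e-07), while the integrin chain Itgal fell (log2 -1.27, SE 0.12, adjusted p = 3.06e-06). Of 18 activation genes 9 rose and 6 fell under the WT label (median log2 0.45; 9 and 5 under the KO label). Klrg1, a receptor of differentiated T cells, was among those that fell, at 27.7 to 46.2 CPM in nTreg, without reads in WT-labelled iTreg and at most 0.211 CPM in KO-labelled iTreg. Prdm1 and Batf, described above, are also in that list. Among those that rose were the transferrin receptor Tfrc (log2 3.92, SE 0.14, adjusted p = 6.48e-09), Irf4 (2.69, SE 0.12, adjusted p = 1.99e-08) and the proliferation marker Mki67 (3.62, SE 0.20, adjusted p = 4.9e-08).

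Levels were compared between genes per kilobase of exon, with the exons of all annotated transcripts merged. That length ran from 1.85 kb for Klf2 to 19.03 kb for Satb1, and it can exceed the length of the transcript expressed. Ranks between genes depend on it. In WT-labelled nTreg, Tcf7 was the highest at 371 ± 21.4 CPM per kb (SD, n = 3), followed by Klf2 at 252 ± 17.6 and S1pr1 at 195 ± 36.9. Foxo1, Actn1 and Il7r came next at 56.9 ± 3.08, 53.7 ± 6.22 and 50.2 ± 17.8, with differences below the SD of Il7r. Satb1, Lef1 and Bach2 were the lowest at 23.8 ± 2.72, 19.6 ± 2.50 and 18.1 ± 2.52, where Lef1 and Bach2 differed by less than their SD. In WT-labelled iTreg, Tcf7 and Klf2 were still first and second, at 138 ± 57.3 and 76.5 ± 25.9. Bach2 moved from the last place of 9 to the fourth at 28.3 ± 4.37, between Foxo1 at 31.1 ± 0.872 and S1pr1 at 25.8 ± 4.46, from which it differed by less than its SD. Actn1 and Lef1 were at 17.4 ± 6.65 and 12.2 ± 3.39. Il7r and Satb1 were last, at 6.25 ± 0.769 and 4.13 ± 1.77.

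Between the Hrd1 labels in nTreg, none of the 9 genes was called by edgeR with only the group means fitted to all libraries. In that fit 2.53% of tested genes were called (2.18% higher, 0.341% lower). At an unadjusted p below 0.05 there were 2, Foxo1 and Actn1, against 13.4% of all genes. The log2 difference was negative for 8 of 9, with a median of -0.25 against 0.01 over all genes. Foxo1, Tcf7 and Actn1 were lower in each KO-labelled library than in each WT-labelled one, 3 of 9 genes, while 14.1% of all tested genes were lower without overlap and 29.8% did not overlap in either direction. Foxo1 averaged 493 ± 26.7 CPM under the WT label and 386 ± 5.96 under the KO label (SD, n = 3), a log2 difference of -0.35 (SE 0.12, interval -0.61 to -0.10, adjusted p = 0.193). Tcf7 averaged 974 ± 56.2 and 696 ± 14.6 CPM (log2 -0.49, SE 0.37, adjusted p = 0.622). Actn1 averaged 297 ± 34.4 and 195 ± 20.7 CPM (log2 -0.61, SE 0.25, interval -1.15 to -0.06, adjusted p = 0.316). The remaining 6 lay between -0.31 (Il7r) and 0.14 (Klf2), with adjusted p of 0.617 to 0.951.

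On which side of the threshold Foxo1, Tcf7 and Actn1 fell depended on the libraries and terms in the fit. When replicate numbers entered as a block, Foxo1 (adjusted p = 0.0373) and Actn1 (adjusted p = 0.00562) were called lower by edgeR and Tcf7 was not (adjusted p = 0.0955), when 3.64% of all genes were called lower. With the 6 nTreg libraries alone, Tcf7 (adjusted p = 0.003), Foxo1 (adjusted p = 0.0131) and Actn1 (adjusted p = 0.00664) were all called lower by edgeR, against 4.65% of genes lower and 10.2% in all. DESeq2 called Foxo1 alone (adjusted p = 0.0401), against 1.18% of genes lower. Leaving out iTreg KO replicate 2, which is in neither nTreg group but enters the fit, also brought Foxo1 past the threshold in edgeR (adjusted p = 0.0262). The values of the difference hardly moved: that of Tcf7 was -0.49 over all libraries and -0.48 over the 6. Its spread in nTreg was small (SD 56.2 and 14.6 CPM) and in iTreg large (150.4 and 162 CPM).

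**Figure D3:**
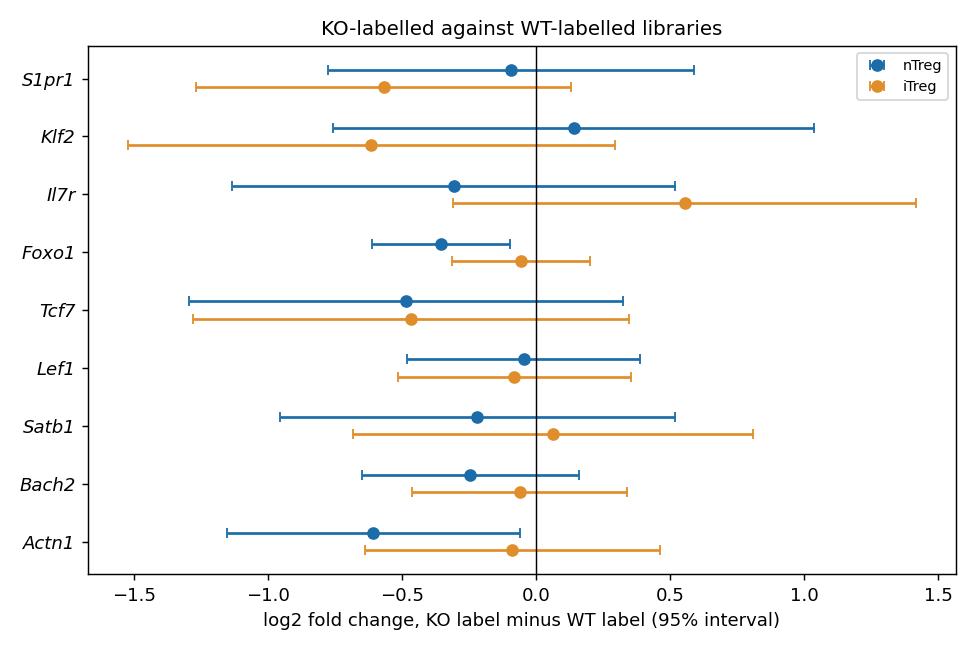
Log2 difference, KO label minus WT label, of each of the 9 genes in nTreg and in iTreg, with 95% intervals from edgeR's fit over 12 libraries. Most intervals cross 0; those of Foxo1 (-0.61 to -0.10) and Actn1 (-1.15 to -0.06) in nTreg do not before adjustment over all genes.

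The pathway genes around the list gave few calls between labels in nTreg. Of the 30 naive and quiescence genes none was called by edgeR (2 at an unadjusted p below 0.05, 1 lower by DESeq2), 25 had a negative difference, and the median was -0.22. The block called 5 of them lower, named here and below after their values were seen: Btg2 (log2 -0.49, adjusted p = 0.0026), Dapl1 (-1.59, adjusted p = 0.0307), Ets1 (-0.25, adjusted p = 0.0486), Il6ra (-0.75, adjusted p = 0.0177) and Nsg2 (-0.39, adjusted p = 0.0114). Around Tcf7, Tle1 was higher, at 6.94, 7.36 and 9.21 CPM under the WT label and 15.3, 15.4 and 16.6 under the KO label (log2 0.999, SE 0.20, adjusted p = 0.0162, edgeR), the single edgeR call among 20. DESeq2 called 1 of the 20 higher, and the block 1 higher and 2 lower. Around Il7r, the shared chain Il2rg was lower, at 765, 748 and 778 CPM and 532, 546 and 552 CPM (log2 -0.49, SE 0.10, adjusted p = 0.0249, edgeR), the single edgeR call among 16. DESeq2 called 3 of the 16 lower, and the block 3 lower and 1 higher. Leaving out 1 nTreg library ended the call of Il2rg for each of the 6 libraries (log2 -0.50 to -0.48, adjusted p = 0.0862 to 0.115) and that of Tle1 for 4 of them, all but WT replicate 3 and KO replicate 1 (adjusted p = 0.0562 to 0.0906).

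For the other lists in nTreg, edgeR called none of 22 FOXO-acting genes (3 at an unadjusted p below 0.05, 1 by DESeq2), none of 14 FOXO and KLF2 targets (4, and 0 by DESeq2), none of 19 egress genes (0, and 0), none of 13 genes around Bach2 and Satb1 (2, and 1), none of 17 around Actn1 (1, and 1) and none of 18 activation genes (4, and 1). The block, under which 5.36% of all tested genes were called higher and 3.64% lower, brought calls in both directions. Sestrin genes Sesn1 (log2 -0.73, adjusted p = 0.000564) and Sesn3 (-0.48, adjusted p = 0.00649), which are FOXO targets, were lower, as were Phlpp1 (-0.40, adjusted p = 0.022) and Jak1 (-0.36, adjusted p = 0.0072). Higher with the block were Cd69 (0.66, adjusted p = 0.00724), which holds S1PR1 inside the cell, Sgk1, a kinase that acts on FOXO factors (0.76, adjusted p = 0.0361), and the activation genes Il2ra (0.47, adjusted p = 0.0124), Myc (0.43, adjusted p = 0.0297) and Mki67 (0.47, adjusted p = 0.0414).

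Markers of other cells differed between the labels in nTreg as well. The 9 B cell markers summed to 18.5 to 20.6 CPM under the WT label and 13.1 to 14.998 under the KO label, mostly from Cd79b. The erythroid list summed to 3.11 to 4.65 and 8.85 to 35.4 CPM (Hba-a1 at 0 in all). The macrophage list summed to 67.8 to 288 and 47.6 to 638 CPM, the highest in KO replicate 2. Pecam1, an endothelial marker that T cells also express, was at 239.7, 225 and 257 CPM under the WT label and 171, 168 and 185 under the KO label. The part of these cells in the differences of Foxo1, Tcf7 and Actn1 was not tested. The 9 genes together took 0.362% to 0.420% of all counts in WT-labelled nTreg and 0.313% to 0.346% in KO-labelled nTreg.

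In iTreg none of the 9 genes was called between labels by edgeR, where 0.183% of all genes were called, and 0 of the 9 had an unadjusted p below 0.05, against 7.56% of all genes. None was called by DESeq2 (0.779% of all genes) or with the block (0.947%). None had groups without overlap, against 9.63% of all genes. The 4 widest differences were -0.61 for Klf2 (SE 0.42, adjusted p = 0.797), -0.57 for S1pr1 (SE 0.32, adjusted p = 0.755), 0.55 for Il7r (SE 0.40, adjusted p = 0.815) and -0.47 for Tcf7 (SE 0.37, adjusted p = 0.838), all by edgeR. The other 5 lay between -0.09 and 0.06. Without KO replicate 2 these 4 moved toward 0 or, for Il7r, past it: the log2 differences of Klf2, S1pr1, Il7r and Tcf7 were -0.21, -0.21, -0.07 and -0.11. Without KO replicate 3 they were -1.06 for Klf2, -0.92 for S1pr1 and -1.05 for Tcf7. Without both libraries numbered 2 they were -0.44 for Klf2, -0.35 for S1pr1 and -0.30 for Tcf7.

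Within pairs of libraries that carry the same number, Klf2, S1pr1 and Tcf7 were lower under the KO label in all 3 iTreg pairs, 3 of 9 genes, as were 18.6% of all tested genes. With the block their adjusted p were 0.169, 0.158 and 0.133 (edgeR). In nTreg, 7 of the 9 were lower in all 3 pairs, against 28.0% of all tested genes, and Klf2 and Lef1 were lower in 2 of 3. Whether same-numbered libraries share an animal or a day is not in the labels.

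Of the genes in the 9 lists, edgeR called 0 in iTreg, with 0 to 3 per list at an unadjusted p below 0.05, and DESeq2 called 1. The block called 3 in iTreg, named after their values were seen: Itgb7 was lower (log2 -0.51, adjusted p = 0.0213), the chemokine receptor gene Cxcr3 higher (0.65, adjusted p = 0.0379) and Il2rg lower (-0.36, adjusted p = 0.0477). Itgb7 and Cxcr3 are both among the FOXO and KLF2 targets.

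iTreg KO replicate 2 had the widest spread of deviations from its group mean over all tested genes among the 12 libraries. The SD of its log2 deviations was 0.427, and the next was 0.409 in iTreg WT replicate 3. Among the 9 genes, the size and direction of its departure differed by gene. Compared with the mean of KO replicates 1 and 3, Klf2 was 3.79 times lower, S1pr1 2.93 times, Tcf7 2.91 times, Satb1 2.10 times and Bach2 1.51 times. Foxo1 and Lef1 were lower by smaller factors, while Actn1 was 1.19 times and Il7r 2.65 times as high. Klf3, named after its values were seen, was at 5.60 CPM there, also the lowest of all 12 libraries, and 26 of the 30 naive and quiescence genes were below their group mean. Foxp3 was at 191 CPM in that library and at 306 to 393 in the other iTreg libraries. Replicate 3 was the highest of its group for S1pr1, Klf2, Tcf7, Lef1, Satb1 and Actn1 under both labels in iTreg. iTreg WT replicate 2, one of the libraries with Xist reads, was below its group mean for all 9 genes.

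**Figure D4:**
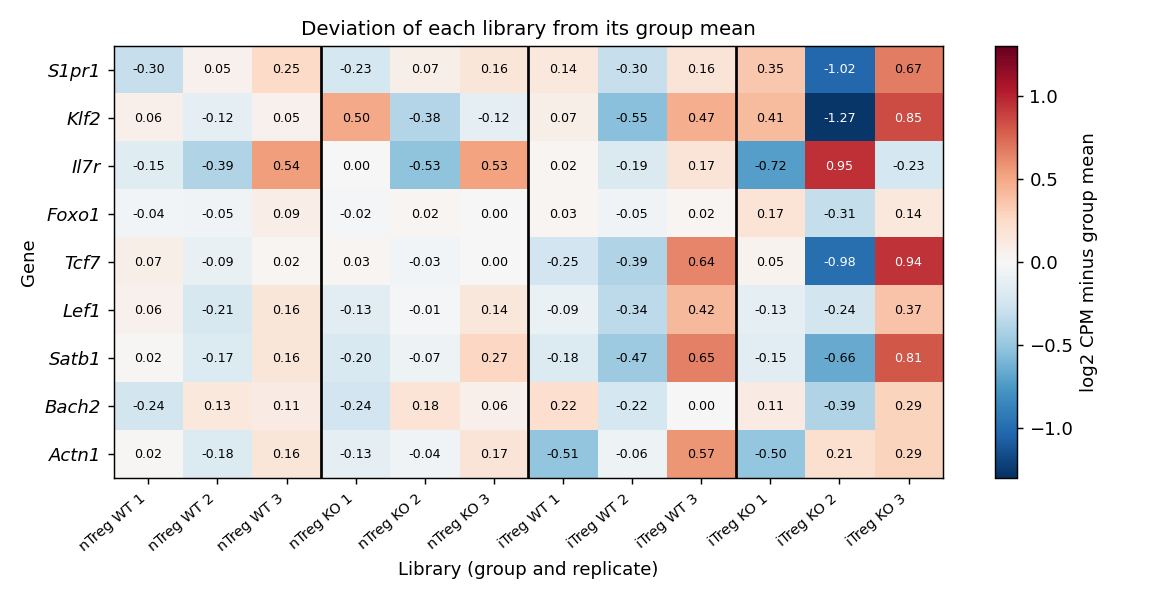
Deviation of each library from its group mean (log2 CPM) for the 9 genes, in the 12 libraries. iTreg KO replicate 2 has the lowest values for Klf2 (-1.27) and S1pr1 (-1.02) and a positive value for Il7r.

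The difference of the label effects between kinds (iTreg minus nTreg) was called for none of the 9 by edgeR, where 0.291% of all genes were called, and 0 of the 9 had an unadjusted p below 0.05, against 7.44% of all genes. None was called by DESeq2 (1.20% of all genes) or with the block (1.80%). It was 0.86 for Il7r (SE 0.55, interval -0.33 to 2.06), -0.75 for Klf2 (interval -2.03 to 0.52) and 0.52 for Actn1 (interval -0.26 to 1.29). For Foxo1 it was 0.30 (SE 0.17, interval -0.07 to 0.66), so the lower Foxo1 in KO-labelled nTreg was not shown to differ from the iTreg value. Among the lists' genes edgeR called this difference for 0, with 0 to 3 per list at an unadjusted p below 0.05, and DESeq2 called 1 higher among the FOXO and KLF2 targets and 1 lower among the WNT pathway genes. The block called 4, named after their values were seen: Sesn3 (log2 0.58, adjusted p = 0.0479) and Cxcr3 (0.87, adjusted p = 0.0344) were higher, and Tle1 (-1.13, adjusted p = 0.0324) and Mki67 (-0.86, adjusted p = 0.0427) lower.

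Across the 12 libraries, each gene was set beside the genes whose log2 CPM ran most like it, as a description only, since the contrast between kinds dominates such correlations. The closest to Satb1 was Camk1d (Pearson r = 0.997), to S1pr1 Tmem71 (0.994), to Tcf7 Cd226 (0.992) and to Klf2 Fam172a (0.989). The closest to Lef1 was Stk24 (0.986), to Foxo1 Prr12 (0.986), to Actn1 Wipf1 (0.986), to Il7r Tsc22d4 (0.985) and to Bach2 Xpr1 (0.972). With group means removed, Tcf7 again ran with Cd226 (r = 0.997) and Klf2 with Fam172a (0.973), while Satb1 ran with Top2b (0.994), S1pr1 with Bach1 (0.989), Lef1 with 1500011B03Rik (0.979), Bach2 with Sik2 (0.977), Foxo1 with Prkacb (0.974), Actn1 with D4Ertd22e (0.972) and Il7r with Uba3 (0.941). Within the list, deviations of Lef1 and Satb1 ran together (r = 0.956), as did those of Tcf7 and Satb1 (0.934) and of S1pr1 and Foxo1 (0.934). Il7r ran with Foxo1 and S1pr1 over the 6 nTreg libraries (r = 0.54 and 0.42) and against them over the 6 iTreg libraries (-0.92 and -0.78). These deviations share libraries, and iTreg KO replicate 2 is the most distant point in several of them.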

How the data were processed

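RNA was sequenced in 12 libraries, 3 for each of 4 groups. Raw counts by gene symbol were deposited by the authors, 1 file per library with 23337 symbols each. The submitters' processing notes name cutadapt 1.13, STAR, HTSeq 0.6.1p1, DESeq2 and the build mm10, without roles. The gene annotation and the strand setting are not given in the sources used here.

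Testing used edgeR 4.0.16 in R 4.3.3: TMM factors, robust quasi-likelihood fit of the 4 group means to all 12 libraries, 8 residual degrees of freedom. Genes with low counts were dropped by edgeR's filter (count at least 10, total at least 15), so that 12038 stayed. P-values were adjusted by Benjamini-Hochberg over all of them, and 0.05 was the threshold. CPM were computed from the counts with TMM-adjusted library sizes, and log2 values are fitted differences with a standard error (SE). CPM per kb divides by exonic length in GENCODE M21, found for 10925 of the tested genes. Upstream sequences are from RefSeq (GRCm38.p6).

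The 9 genes and the lists around them were chosen with earlier results of these data known. The genes named are those 9, up to 4 called genes of smallest p per list and comparison, and the genes whose log2 CPM, or deviations from group means, correlated best with each of the 9. Ccr7, Klf3, the genes named for a call with the block, and the check and marker genes lie outside that rule and were named after their values were seen. Vsir, Grk2 and Tle5 were matched by their older symbols in the files. Of the listed genes, Rag1, S1pr5, Spns2 and Actn3 were among those too low to test. Some listed genes enter the counts but are not reported here by name.

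To see whether equal replicate numbers mark pairs, deviations from the group means were correlated between labels. Same-numbered libraries correlated at 0.438 to 0.572 in nTreg and 0.307 to 0.629 in iTreg, other numbers at -0.421 to -0.05 and -0.519 to 0.135, and same numbers of different kinds at -0.05 to 0.0953. For the comparisons of labels, the replicate number was therefore used as a block within each kind in an alternative fit, which is given beside the results it changes. For the comparisons between kinds, the block joined equal numbers of both kinds, although the correlations above gave no sign of pairs across kinds. Further alternatives were DESeq2 1.42.0, RLE factors, testing without the filter or with at least 5 CPM required in 3 libraries, fitting the compared libraries alone, and leaving out each library. Fits without both libraries numbered 2 of a kind, and without the 3 libraries with Xist reads, were added after the data were seen. The test was tried on simulated data. No libraries held identical values. Reads, exons and splicing were not analysed here.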

Additional observations from a re-analysis of the deposited data

Results flagged for a closer look

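Mki67, the proliferation marker, was above the WT label in KO-labelled nTreg and below it in KO-labelled iTreg. It was flagged for that pattern, labels without overlap in both kinds and in opposite directions, so the pattern is no further result. Over all tested genes, labels did not overlap for 29.8% in nTreg and 9.63% in iTreg, in either direction. In nTreg it was at 137, 94.0 and 170.4 CPM in WT-labelled libraries and at 190.3, 177 and 190.4 CPM in KO-labelled ones, so each KO-labelled library was the higher. In iTreg it was at 1741, 1577 and 1626 CPM under the WT label and 1451, 1049 and 1288 CPM under the KO label, so each KO-labelled library was the lower. The difference of the label effects, iTreg minus nTreg, was -0.86 on the log2 scale. It did not pass in edgeR's fit over all libraries (adjusted p = 0.302) and passed with the replicate block (adjusted p = 0.0427). Within nTreg the log2 difference was 0.47, not called by edgeR over all libraries (adjusted p = 0.268) and called with the block (adjusted p = 0.0414). Within iTreg it was -0.38, called by neither (adjusted p = 0.667, and 0.162 with the block) nor by DESeq2.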

How the results depend on the processing

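With the replicate number as a block, edgeR called 645 genes higher and 438 lower between labels in nTreg (2 of the 9 members lower), 81 and 33 in iTreg, and 41 and 176 for the difference. In the block fit the difference of Tcf7 between kinds turned from 0.02 to -0.10, and the block changed no other call of the 9 genes than Foxo1 and Actn1 in nTreg. In the fits of the compared libraries alone the counts were 621 and 521 in nTreg (3 members lower) and 0 and 0 in iTreg. DESeq2 called 143 lower in nTreg (1 member), 73 and 26 in iTreg, and 26 and 112 for the difference. Without both iTreg libraries numbered 2, 127 genes were lower in nTreg (1 member), 1 was higher and 0 lower in iTreg, and 1 was higher for the difference. Without both nTreg libraries numbered 2 the counts were 100 and 3 in nTreg, 7 and 0 in iTreg, and 0 and 1 for the difference. Without the 3 libraries with Xist reads they were 70 and 1, 0 and 0, and 0 and 1, and 5 members rather than 8 were lower in WT-labelled iTreg. These last fits hold fewer libraries; the cause of the other changes was not tested.

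Leaving out 1 library gave 155 to 343 genes higher and 12 to 89 lower in nTreg (lowest without nTreg WT replicate 2, highest without iTreg KO replicate 2; 0 to 1 members lower), 0 to 53 and 0 to 19 in iTreg, and 0 to 3 and 1 to 55 for the difference. Between kinds it gave 3794 to 4455 and 3272 to 3929 under the WT label, and 3422 to 4008 and 3186 to 3742 under the KO label, with 8 members lower and 1 higher each time.

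Some uncalled values of the 9 genes changed sign when 1 library was left out. Between labels in nTreg the log2 difference ran from -0.23 to 0.038 for S1pr1, -0.15 to 0.32 for Klf2, -0.14 to 0.033 for Lef1 and -0.61 to 0.017 for Il7r. In iTreg it ran from -0.29 to 0.16 for Lef1, -0.068 to 0.85 for Il7r, -0.14 to 0.081 for Foxo1, -0.46 to 0.46 for Satb1, -0.31 to 0.25 for Actn1 and -0.21 to 0.11 for Bach2. The difference of the label effects ran from -0.25 to 0.21 for Lef1, -0.56 to 0.41 for Tcf7 and -0.24 to 0.68 for Satb1. Without both iTreg libraries numbered 2, the iTreg values were 0.0043 for Bach2, 0.057 for Foxo1 and -0.16 for Il7r, and without the libraries with Xist Satb1 was -0.15. The difference of the label effects was 0.053 for Lef1 without both nTreg libraries numbered 2, 0.0055 for Lef1 with no filter, and -0.18 for Tcf7 without the libraries with Xist.

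With 3 libraries a group, the 95% intervals between labels reach beyond 1 log2 unit for Klf2, Tcf7 and Il7r in both kinds, so differences of that size are not resolved there. The labels give no sequencing batch.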
